A study of Mus musculus with 12 samples.

Results

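Spinal cord lesions of 4 mice that had received vehicle were compared with spinal cord segments of 4 uninjured mice, by RNA sequencing of the whole dissected piece. The members were taken by their labels alone, and they are 8 of the 12 samples in the series. Every mouse was an adult (>8 weeks old) on a C57bl/6J background and carried Glast-CreERT2, R26R-YFP and Rasless. In this line a tamoxifen-dependent Cre is expressed from the Glast promoter, which is active in type A pericytes, and the YFP reports recombination. Vehicle mice were given 5 daily injections of solvent (ethanol and corn oil at 1:9), waited 7 days, and then underwent a dorsal hemisection at high thoracic level. Their lesions were taken 14 days later and frozen. The uninjured mice are labelled with a vehicle injection and no treatment. Neither group received tamoxifen, so the drug induced no recombination in either, and recombination without it was not tested. Both groups carry the alleles of the line, and the labels do not list which Ras alleles Rasless holds. The other 4 samples are tamoxifen lesions, which entered the fit only to share its estimate of the spread. Genes named to complete a count of 5 or fewer, and those said to be named for a role or size, were chosen after their values had been seen. Libraries are named by mouse number, and values in sentences run in the order 376, 377, 385 and 467 for uninjured cord and 402, 428, 429 and 457 for vehicle lesions.

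A spinal cord lesion of this age holds a core of fibroblast-like cells and blood-derived macrophages, bordered by astrocytes whose processes have turned towards it. Macrophages and microglia in the core clear myelin, whose lipids are broken down in lysosomes and then stored or exported. Stromal cells there fold and ship large amounts of secreted protein through the endoplasmic reticulum and Golgi. Matrix, phagocyte and neuron markers are the usual measures of such tissue. The lists below cover what else the lesion expressed: secretion, lipid handling, fuel use, stress and death, immune regulation, vessels, signalling, transcription factors and the cytoskeleton.

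Library totals ran from 8868865 to 11686386 counts in uninjured cord and from 7967970 to 12581324 in lesions. The first principal component of log2 CPM (counts scaled to library size) held 72.0% of the variance and separated the groups, and the least similar pair of libraries within either group still had a correlation of 0.974 across genes, which are not independent replicates. Other features moved with the libraries. Skeletal muscle transcripts (15 measured markers) summed to 93.4 to 1372 CPM in uninjured cord and 93.8 to 1015 in lesions, with 377, 385, 402, 429 and 457 high and 376, 467 and 428 low. By sex-linked transcripts, 3 of the 4 lesion mice and 1 of the 4 uninjured mice were male. Library 467 stood apart among the uninjured: its level of Slc47a1, a meningeal transporter, was 0.0878 CPM against 1.23 to 3.44 in the others. Library 376 held more blood transcripts than the rest, with Hbb-b1 (beta-globin) at 70.0 CPM against 4.30 to 8.74 in the other uninjured libraries and 10.9 to 26.4 in lesions. Counting errors cover sampling only, and the labels show separate animals but not how tissue was processed beyond that.

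Of 16473 genes tested, 8368 (50.8%) passed the test, 4393 of them higher (26.7%) and 3975 lower (24.1%) in the lesions, by edgeR's quasi-likelihood test with Benjamini-Hochberg adjustment at 0.05. These shares of 26.7% and 24.1% stand beside every list count below. The 2 directions were close in number and far apart in size. At least 2-fold changes were called for 1681 genes upwards (10.2%) and 371 downwards (2.25%). At 4-fold or more there were 708 rises and 5 falls. At 16-fold or more there were 110 rises and no fall. Genes called higher took 16.7% ± 0.399 of the counts in uninjured cord and 28.5% ± 2.44 in lesions (SD, n = 4), while genes called lower went from 45.4% ± 0.436 to 32.5% ± 1.84. Genes not called held 38.3% and 38.0%. The median log2 change over all genes was 0.0181. Lesions also varied more among themselves: the SD of log2 CPM was larger in lesions than in uninjured cord for 58.6% of genes. In whole tissue, fewer cells of a type and less RNA per cell cannot be told apart.

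**Figure D1:**
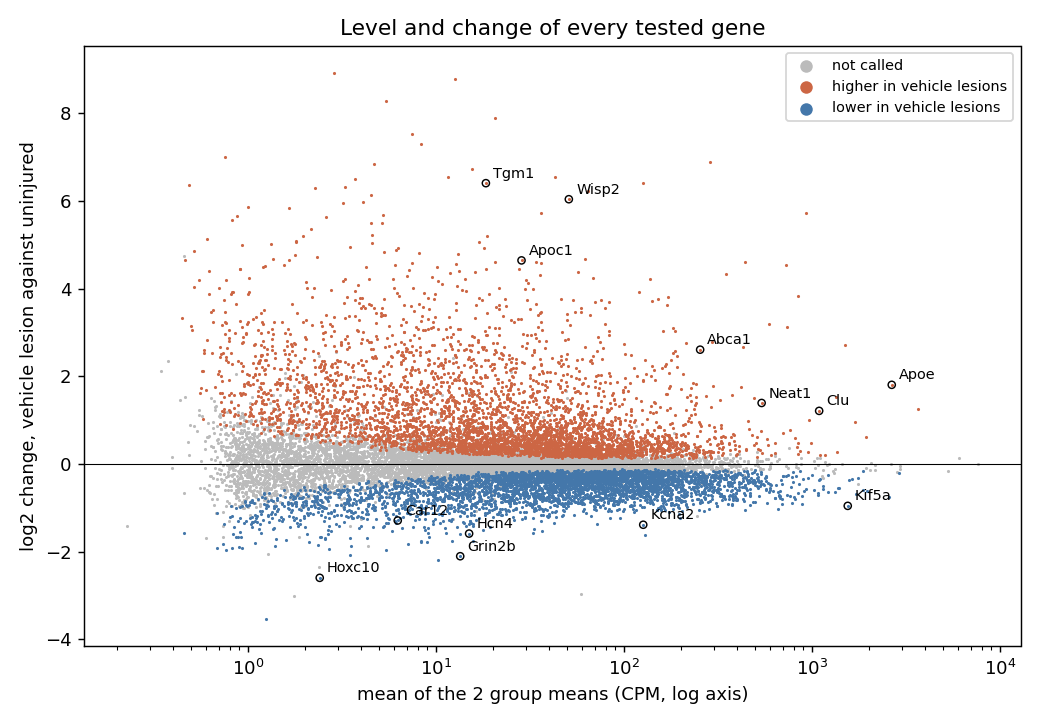
Each point is 1 of the genes tested, at the mean of its uninjured and lesion levels (CPM, log axis) and its fitted log2 change, coloured by the call. Called rises reach far further from 0 than called falls, of which 5 pass 4-fold.

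The 5 falls of 4-fold or more were read gene by gene, and all 5 are named for their size. Grin2b, a subunit of the NMDA glutamate receptor, was at 20.3, 19.0, 25.4 and 22.6 CPM in uninjured cord and 3.85, 5.68, 4.78 and 5.96 CPM in lesions. Its groups did not overlap. Hoxc10, a patterning gene of caudal cord, was at 2.30, 2.14, 2.20 and 9.92 CPM in uninjured cord and 0.855, 0.247, 1.19 and 0.392 CPM in lesions. Library 467 was far above the other uninjured libraries, and without it the log2 change was -1.69 in place of -2.59 (adjusted p = 0.0131). Rpl3, a ribosomal protein with near-identical copies elsewhere in the genome, was at 29.6, 28.1, 6.85 and 2.81 CPM in uninjured cord and 4.06, 3.95, 2.85 and 3.84 CPM in lesions, so its groups overlapped. Mylk4, a muscle kinase, was at 16.8 CPM in muscle-rich library 377 and at 1.96 or less in every lesion. Gm10159, a predicted gene, was at 7.28 CPM in 377 and at 0.459 or less in every lesion. The calls of both were lost when any of libraries 377, 385, 402, 428, 429 and 457 was left out (adjusted p up to 0.497 and 0.294). The counts of Gm10159 also went against its FPKM, which was 98.1 in uninjured cord and 114 in lesions.

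Outside the matrix, phagocyte and neuron lists, the largest rises among well-expressed genes mixed secreted, enzymatic and immune products. Wisp2, a matricellular protein made by fibroblasts, was at 2.41, 2.06, 1.49 and 0.263 CPM in uninjured cord and 115, 94.7, 108 and 82.6 CPM in lesions. The groups lay far apart, and the fitted rise was 65.6-fold. Tgm1, a transglutaminase that crosslinks protein, was at 0.689, 0.514, 0.264 and 0.263 CPM in uninjured cord and 54.1, 23.0, 55.7 and 12.8 CPM in lesions, and rose 84.5-fold. Sfrp4, a secreted Wnt antagonist, rose 17.5-fold (from 3.33 ± 0.709 to 58.3 ± 19.0 CPM). S100a4, a calcium-binding protein of motile cells, rose 20.8-fold (from 1.48 ± 0.608 to 30.7 ± 3.66 CPM), with a narrow range of 25.4 to 33.9 CPM over the lesions. Atf3, a stress-induced transcription factor, rose 18.6-fold (from 1.44 ± 0.319 to 27.2 ± 5.88 CPM). Slc43a3, a purine transporter, and Apobec1, an RNA-editing deaminase, rose 21.7-fold and 15.9-fold. Ly9 and Cd300a, both surface receptors of leukocytes, rose 21.1-fold and 20.5-fold. Ppic, a cyclophilin that folds protein in the secretory pathway, rose 16.2-fold (from 2.54 ± 0.853 to 40.9 ± 12.4 CPM).

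A few of the largest rises differed widely between lesions. Lcn2, the iron-siderophore carrier lipocalin 2, was at 3.67, 1.29, 4.83 and 0.176 CPM in uninjured cord and 36.9, 22.3, 143 and 9.33 CPM in lesions. Library 429 held most of that signal and 457 the least. Steap4, a metalloreductase, was at 1.72, 1.63, 0.967 and 0.527 CPM in uninjured cord and 13.3, 4.94, 51.5 and 11.9 CPM in lesions, again led by 429. H19, an imprinted long noncoding RNA that is also made in muscle, was at 2.18, 6.17, 2.64 and 0.527 CPM in uninjured cord and 65.0, 10.2, 76.3 and 126 CPM in lesions. Lesion 428 was lowest and 457 highest both for H19 and for the muscle transcripts. The part of muscle in this rise was not tested.

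By gain in CPM, several secreted, lysosomal and astrocyte genes outside the matrix and phagocyte lists stood out. Clu (clusterin), a secreted chaperone, was at 738, 638, 624 and 634 CPM in uninjured cord and 1687, 1538, 1649.9 and 1219.9 CPM in lesions. Gfap, the filament of reactive astrocytes, gained more, from 2303 CPM in uninjured 376 to 5206 in lesion 402. Psap, the precursor of the saposins that help lysosomal enzymes degrade sphingolipid, rose 1.54-fold (from 1535 ± 101 to 2359.8 ± 375 CPM). Aqp4, the astrocyte water channel, rose 2.01-fold (from 642 ± 88.3 to 1290.1 ± 278 CPM). Prdx6, an antioxidant enzyme that reduces phospholipid peroxides, rose 2.84-fold (from 254 ± 16.3 to 722 ± 162 CPM). Cst3, a secreted inhibitor of cysteine proteases, rose 1.71-fold, and Igfbp5, which binds insulin-like growth factors, 2.99-fold. Neat1, the noncoding RNA scaffold of nuclear paraspeckles, rose 2.62-fold (from 298 ± 65.4 to 781 ± 70.8 CPM). No uninjured library reached the lesions for any of these 8 genes.

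By loss in CPM, abundant neuronal genes led. Kif5a, a motor of axonal transport, was at 1796, 2090.2, 2039 and 2245 CPM in uninjured cord and 1077, 1187, 861 and 1093 CPM in lesions. Every lesion was lower than every uninjured library, and the fitted log2 change was -0.95. Mtap1a and Mtap1b, microtubule proteins of axons and dendrites, fell 1.53-fold and 1.51-fold, and Atp1b1 1.55-fold.

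Ion channels and signalling proteins of neurons were among the largest falls by fold of well-expressed genes outside the neuron list, with 2900097C17Rik and D10Bwg1379e, which carry provisional names (2.95-fold and 2.58-fold). Kcna2, a potassium channel found beside nodes of Ranvier, was at 164, 183, 209 and 175 CPM in uninjured cord and 66.7, 78.0, 67.0 and 68.7 CPM in lesions. Hcn4, a pacemaker channel, fell 3.00-fold (from 22.5 ± 2.09 to 7.51 ± 1.71 CPM), and Kcnk12 and Trpc5, channels of the potassium and TRP families, 2.55-fold and 2.59-fold. Gucy1a2, a subunit of the nitric oxide receptor, was at 50.04, 51.3, 65.5 and 50.1 CPM in uninjured cord and 13.1, 20.4, 19.3 and 22.1 CPM in lesions. Ksr2, a scaffold of the kinase cascade below Ras, fell 3.04-fold (from 20.1 ± 3.51 to 6.63 ± 1.82 CPM). The orphan receptors Gpr101 and Gpr26 fell 2.72-fold and 2.55-fold. Nrgn, a postsynaptic calmodulin buffer, Doc2a, a calcium sensor of release, Lrrc7, a postsynaptic scaffold, and Lingo4, a membrane protein, fell 2.82-fold, 2.67-fold, 2.59-fold and 2.78-fold. Groups did not overlap for any of these 14 genes.

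Hox genes record position along the cord, so they bear on whether the pieces came from the same level. They were examined after their values had been seen. Of 28 measured, 15 fell, 2 rose and 11 were not called, beside 24.1% of all genes lower and 26.7% higher. In the HoxB cluster 7 of 8 fell, with a median log2 change of -0.77. Hoxa9, Hoxa10, Hoxb9, Hoxc9, Hoxc10 and Hoxd9, the measured genes of highest number, were all called lower. Genes of lower number gave falls, rises and genes not called. Hoxb8 was at 95.0, 77.5, 74.3 and 78.6 CPM in uninjured cord and 40.3, 43.9, 27.7 and 43.8 CPM in lesions, and Hoxb9 fell 1.79-fold and Hoxb3 2.17-fold. The 2 that rose were Hoxa2 (1.56-fold) and Hoxc5 (1.51-fold), and Hoxc5 was not called without 376, 402, 428 or 457 (adjusted p up to 0.083). Hoxa9 was at 12.2, 17.1, 15.99 and 38.5 CPM in uninjured cord and 6.63, 9.38, 4.59 and 10.7 CPM in lesions. Library 467 had by far the most Hoxa9, and among the uninjured it was the lowest for Hoxc8 at 97.0 CPM against 182 to 191 in the other uninjured libraries. The level at which each piece was cut was not tested, and it cannot be told apart from the injury in these groups.

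Secretion machinery rose in most of its measured members. Of 28 measured chaperones and sensors of the endoplasmic reticulum, 20 rose and none fell (median log2 0.34), and of 34 carriers of the secretory pathway 25 rose and 1 fell (median log2 0.42), beside 26.7% and 24.1% of all genes. Kdelr3, a receptor that returns chaperones from the Golgi, was at 1.95, 2.40, 1.23 and 1.67 CPM in uninjured cord and 11.9, 6.54, 11.1 and 13.4 CPM in lesions. Every lesion lay above every uninjured library, and the rise was 5.93-fold (adjusted p = 1.07e-05). Sec24d, a coat subunit of the vesicles that carry procollagen, was at 10.1, 12.3, 10.7 and 9.39 CPM in uninjured cord and 30.6, 19.4, 29.3 and 32.8 CPM in lesions, a rise of 2.64-fold (adjusted p = 2.08e-05). Library 428 was the lowest lesion for both genes.

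General carriers rose less. Surf4, Sec61a1 and Kdelr2, which act in cargo export, translocation and retrieval, rose 1.86-fold, 1.74-fold and 1.77-fold, and Rrbp1, a ribosome receptor of rough membranes, 1.89-fold. Creb3l1, a membrane-bound factor that activates secretory genes and was named for that role, was at 5.51, 3.94, 4.74 and 2.11 CPM in uninjured cord and 13.9, 10.2, 11.7 and 20.2 CPM in lesions. The single fall was Sec23a, the partner of the SEC24 coat subunits (from 111 ± 3.84 to 88.7 ± 5.84 CPM). Among chaperones the protein disulphide isomerases Pdia5, P4hb, Pdia4 and Pdia3 rose 2.56-fold, 1.81-fold, 1.72-fold and 1.54-fold. P4hb, which is also a subunit of prolyl 4-hydroxylase, was at 204, 185, 173 and 173 CPM in uninjured cord and 349, 283, 353 and 345 CPM in lesions. Ppib, the cyclophilin of procollagen folding, rose 1.53-fold (from 30.2 ± 1.199 to 46.3 ± 2.53 CPM).

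Changes of the classical stress-induced chaperones were small, and the promoters of several are shown because they carry the element through which such genes are known to be induced together. Calr (calreticulin) was at 387, 307, 327 and 305 CPM in uninjured cord and 454, 379, 423 and 543 CPM in lesions, with 376 above lesion 428. Hspa5 (BiP) was at 410.2, 324, 315 and 322 CPM in uninjured cord and 412, 363, 392 and 579 CPM in lesions. Its groups overlapped, its rise was 1.27-fold (adjusted p = 0.0476), and the call was lost without any of libraries 377, 385, 467, 402, 429 and 457 (adjusted p up to 0.202). Creld2 was at 19.3, 14.7, 13.7 and 16.8 CPM in uninjured cord and 22.7, 21.1, 21.8 and 31.7 CPM in lesions, and Hsp90b1, Dnajc3 and Pdia6 rose 1.25-fold, 1.34-fold and 1.25-fold, the last losing its call without 377, 385, 467 or 457 (adjusted p up to 0.0767). The endoplasmic reticulum stress response element, CCAAT and CCACG with 9 bases of any kind between them, on either strand, was searched in the 250 bases before each RefSeq start on GRCm38.p6. It was in 9 of 24 listed genes with a promoter entry and in 35 of 27025 genes overall (0.13%). Of the 9, 7 rose, and of the 15 without it, 11 rose. The shorter TGACGTGG was in 3 of 27 listed carrier genes and in 0.603% of all genes. All 3 rose (Kdelr3, Sec24d and Copb1), as did 16 of the 24 without it. The motifs were chosen after the values were seen, and a match is a description of letters only. The reverse complement of the shorter motif begins with the letters that end the longer one, so matches of the 2 can overlap. Capitals mark the longer motif in Hspa5, Calr and Creld2 and the shorter one in Kdelr3 and Sec24d, and the match is on the strand opposite to the printed one in Calr, Creld2 and Kdelr3. In the order printed, the windows lie at chr2:34771840-34772089 (plus strand), chr8:84846932-84847181 (minus), chr15:88819396-88819645 (plus), chr15:79516158-79516407 (plus) and chr3:123267246-123267495 (plus).
Hspa5: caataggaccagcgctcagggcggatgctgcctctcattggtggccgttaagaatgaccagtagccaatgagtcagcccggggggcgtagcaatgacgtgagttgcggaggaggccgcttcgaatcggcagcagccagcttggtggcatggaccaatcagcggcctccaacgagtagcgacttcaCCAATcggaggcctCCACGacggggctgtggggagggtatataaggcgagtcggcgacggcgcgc
Calr: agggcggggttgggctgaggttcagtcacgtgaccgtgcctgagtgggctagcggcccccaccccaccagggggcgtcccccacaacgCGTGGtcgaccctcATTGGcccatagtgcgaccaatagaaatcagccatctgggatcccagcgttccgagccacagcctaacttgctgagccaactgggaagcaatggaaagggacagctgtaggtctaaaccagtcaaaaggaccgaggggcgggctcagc
Creld2: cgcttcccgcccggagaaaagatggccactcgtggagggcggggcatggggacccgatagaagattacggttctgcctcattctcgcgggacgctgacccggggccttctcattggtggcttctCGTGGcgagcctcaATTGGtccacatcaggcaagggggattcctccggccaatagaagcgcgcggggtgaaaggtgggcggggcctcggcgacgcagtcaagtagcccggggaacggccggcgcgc
Kdelr3: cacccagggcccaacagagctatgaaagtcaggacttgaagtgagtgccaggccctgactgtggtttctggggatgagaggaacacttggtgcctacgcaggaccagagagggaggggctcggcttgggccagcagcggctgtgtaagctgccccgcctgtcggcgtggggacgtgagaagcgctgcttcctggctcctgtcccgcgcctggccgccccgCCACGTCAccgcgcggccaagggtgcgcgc
Sec24d: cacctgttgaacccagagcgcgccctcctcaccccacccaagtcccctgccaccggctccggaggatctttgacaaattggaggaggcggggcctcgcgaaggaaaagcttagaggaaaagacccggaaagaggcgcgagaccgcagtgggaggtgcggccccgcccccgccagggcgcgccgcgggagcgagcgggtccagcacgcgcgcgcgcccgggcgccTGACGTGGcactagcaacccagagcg
The last motif base lies 47 bases before the start in Hspa5, 144 in Calr, 108 in Creld2, 23 in Kdelr3 and 19 in Sec24d.

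**Figure D2:**
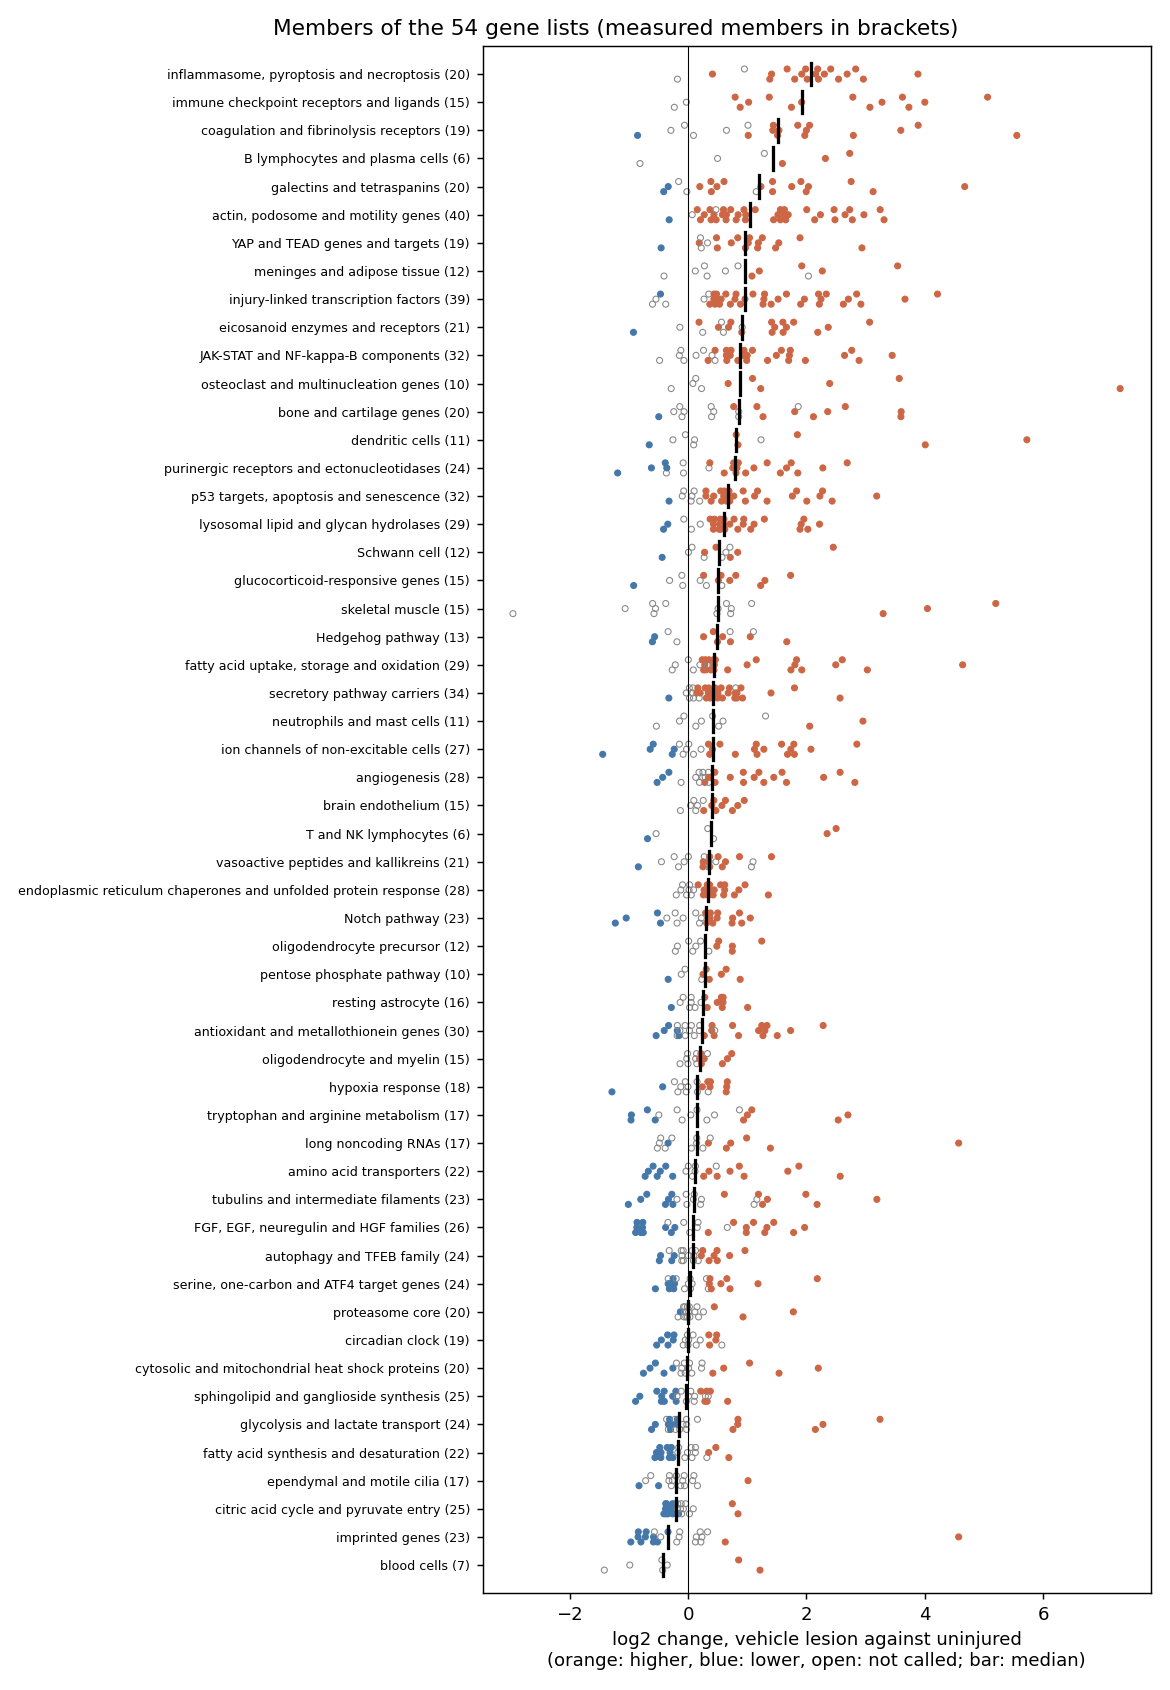
Each point is a measured member of 1 of the 54 gene lists, placed at its fitted log2 change, with a bar at the list's median. Lists of inflammasome, checkpoint and coagulation genes stand at the top, and those of fatty acid synthesis, citric acid cycle and imprinted genes near the bottom.

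Enzymes that digest lipid and glycan in lysosomes rose for 24 of 29 members and fell for 2 (median log2 0.61), beside 26.7% and 24.1% of all genes. Npc2, which moves cholesterol out of lysosomes, was at 152, 141, 135 and 146 CPM in uninjured cord and 366, 272, 348 and 258 CPM in lesions. Hexa, a subunit of the hexosaminidase that degrades gangliosides, rose 3.71-fold and the mannosidase Man2b1 3.76-fold. Libraries 402 and 429 were above 428 and 457 for all 3. The 2 falls were Gaa, which degrades glycogen (from 437 ± 16.7 to 328 ± 16.5 CPM), and Ids, which degrades heparan and dermatan sulphate (from 417 ± 4.69 to 329 ± 12.7 CPM).

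Genes of fatty acid uptake, storage and oxidation rose for 22 of 29 members and fell for none (median log2 0.43). Apoc1, an apolipoprotein, was at 2.64, 2.57, 1.58 and 2.02 CPM in uninjured cord and 66.8, 39.0, 70.1 and 43.2 CPM in lesions, a rise of 24.9-fold. Abca1, which exports cholesterol to apolipoproteins, was at 70.7, 72.3, 78.0 and 65.7 CPM in uninjured cord and 415, 293, 686 and 351 CPM in lesions, a rise of 6.09-fold. Plin2, the coat protein of lipid droplets, and Soat1, which esterifies cholesterol for them, rose 3.56-fold and 2.22-fold. Apoe, the main lipid carrier of the brain, was at 1343, 1158, 1099 and 1127 CPM in uninjured cord and 4915, 3813, 4795 and 2987 CPM in lesions.

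Neighbours of Apoe and Apoc1 in the apolipoprotein cluster of chromosome 7 were looked at after these values were seen. Apoc2, the cofactor of lipoprotein lipase, had 0 counts in every uninjured library and was at 8.23, 4.197, 7.44 and 3.06 CPM in lesions. Against a floor of 3 counts over the uninjured group it was at least 82.7-fold higher. Apoc4 also had 0 counts in uninjured cord and was at least 21.9-fold higher. The 2 genes lie next to each other, so their counts may not be separable. Gm14461, a predicted gene, was the only other called gene at 0 in all uninjured libraries.

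Fatty acid synthesis leaned the other way: of 22 genes of synthesis and desaturation, 10 fell and 3 rose (median log2 -0.17). Mean scores of that list overlapped between the groups, at -0.0507 in lesion 428 and -0.0522 in uninjured 385, on the log2 scale from the uninjured mean. Acly, which makes acetyl-CoA from citrate, was at 553, 620.4, 559 and 578 CPM in uninjured cord and 411, 422, 399 and 425 CPM in lesions. Acss2, which makes it from acetate, fell 1.45-fold and the elongase Elovl6 1.38-fold. The 3 rises were Srebf1, a transcription factor for these enzymes (1.61-fold), Acsbg1, an astrocyte acyl-CoA synthetase (1.38-fold), and Elovl1 (1.27-fold). Sphingolipid and ganglioside synthesis was mixed: of 25 genes 10 fell and 6 rose (median log2 -0.03), beside 24.1% and 26.7% of all genes. The 6 rises were genes of ceramide and sphingomyelin synthesis, with log2 changes of 0.21 to 0.67. The falls included St8sia3 and St8sia1, sialyltransferases of complex gangliosides. St8sia1 was at 123, 116, 130.5 and 115 CPM in uninjured cord and 72.0, 70.7, 62.6 and 69.9 CPM in lesions. B4galt6 and B4galnt1, which add sugars to the same lipids, fell 1.44-fold and 1.36-fold.

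Among eicosanoid enzymes and receptors 15 of 21 rose and 1 fell (median log2 0.91). Tbxas1, thromboxane synthase, was at 3.21, 3.00, 3.16 and 2.02 CPM in uninjured cord and 27.2, 14.7, 34.5 and 18.8 CPM in lesions, a rise of 8.39-fold. Hpgds, the haematopoietic prostaglandin D synthase, was at 6.89, 6.34, 6.502 and 4.83 CPM in uninjured cord and 38.1, 22.1, 44.4 and 21.9 CPM in lesions. Hpgd, which inactivates prostaglandins, and Ptges, which makes prostaglandin E, rose 3.04-fold and 2.66-fold. Ptger1, a prostaglandin E receptor, rose 1.65-fold with a range of only 29.5 to 32.6 CPM over lesions, and Ptger3, another, was the fall (from 4.09 ± 0.851 to 2.13 ± 0.579 CPM).

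Of 24 glycolysis and lactate transport genes 6 rose and 8 fell (median log2 -0.16), not far from the 26.7% and 24.1% of all genes. Hk2, the inducible hexokinase, was at 7.35, 11.7, 7.29 and 5.79 CPM in uninjured cord and 43.3, 29.8, 46.2 and 37.0 CPM in lesions. Hk3, the hexokinase of myeloid cells, and Slc16a3, a lactate exporter, rose 9.47-fold and 4.44-fold, and these 3 were named for their roles. The constitutive Hk1 fell 1.26-fold (from 378 ± 16.3 to 300.3 ± 11.1 CPM), and Slc2a3 and Eno2, the glucose transporter and enolase of neurons, fell 1.47-fold and 1.53-fold. Pkm fell 1.23-fold. Per length of transcript, by the authors' FPKM, Hk2 went from 1.39 to 6.83 and stayed far below Hk1, at 92.6 and 73.2.

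The citric acid cycle was lower in small steps: 14 of 25 genes fell and 2 rose (median log2 -0.20). Sdha, a subunit of succinate dehydrogenase, was at 680.5, 651, 623 and 625 CPM in uninjured cord and 505, 515, 463 and 498 CPM in lesions. Sucla2, Dlat and Pcx fell 1.33-fold, 1.30-fold and 1.30-fold. The 2 rises were Idh2, the mitochondrial NADP-dependent isocitrate dehydrogenase (from 35.3 ± 3.34 to 63.3 ± 3.72 CPM), and Suclg2, the GTP-forming counterpart of Sucla2 (from 11.7 ± 1.82 to 19.5 ± 2.95 CPM). In the pentose phosphate pathway, which supplies NADPH, 6 of 10 rose and 1 fell. H6pd, Pgls and Pgd rose 1.84-fold, 1.56-fold and 1.48-fold, and Prps1, which leads to nucleotides, fell 1.26-fold.

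Amino acid genes gave mixed counts, beside 26.7% higher and 24.1% lower among all genes. Among 24 serine, one-carbon and ATF4 target genes 8 rose and 7 fell, with Nupr1, a stress-induced cofactor, at 9.99, 9.26, 8.17 and 2.28 CPM in uninjured cord and 48.2, 21.7, 29.8 and 34.2 CPM in lesions. Cebpg and Atf5 rose 1.47-fold and 1.58-fold, while Aars, a tRNA synthetase, fell 1.18-fold. Of 22 amino acid transporters 9 rose and 7 fell. Slc7a7, an exporter of cationic amino acids in macrophages, rose 5.94-fold (from 1.96 ± 0.477 to 11.8 ± 4.01 CPM), and Slc1a5, a glutamine carrier, rose 3.66-fold. Slc16a10, a carrier of aromatic amino acids, rose 3.22-fold. Slc6a11, a GABA transporter that fell, was at 594, 567, 561 and 564 CPM in uninjured cord and 351, 405, 304 and 375 CPM in lesions.

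In tryptophan and arginine metabolism 5 of 17 rose (Arg1, Kynu, Sat1, Nos2 and Qprt) and 4 fell (Nos1, Sms, Arg2 and Ido2), near the shares of all genes (26.7% and 24.1%). Sat1, which degrades polyamines, was at 37.9, 37.0, 40.0 and 35.9 CPM in uninjured cord and 87.0, 67.4, 95.3 and 68.2 CPM in lesions, and Sms, which makes spermine, fell 1.47-fold. Nos1, the neuronal nitric oxide synthase, fell 1.94-fold (from 144 ± 13.6 to 73.9 ± 12.2 CPM). Nos2, the inducible form, rose but stayed at 1.11 to 1.93 CPM in lesions. Arg1, arginase of alternatively activated macrophages, was also scarce at 0.115, 0.257, 0.264 and 0.439 CPM in uninjured cord and 2.14, 1.36, 3.21 and 0.784 CPM in lesions. Its call and that of Arg2 were lost without any of libraries 376, 377, 385, 467, 402, 428 and 429 (adjusted p up to 0.123 and 0.125).

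Of 30 antioxidant and metallothionein genes, 14 rose and 5 fell (median log2 0.23). Hmox1, which degrades haem and was named for that role, was at 5.97, 6.86, 8.61 and 5.53 CPM in uninjured cord and 40.2, 24.1, 41.5 and 25.9 CPM in lesions, a rise of 4.87-fold. Mt2 and Mt1, the metallothioneins that bind zinc and copper, rose 3.32-fold and 2.46-fold. Mt2 was at 91.4, 77.9, 67.7 and 85.6 CPM in uninjured cord and 288, 249, 363 and 171 CPM in lesions. Nfe2l2 (NRF2), a regulator of many such genes, and Gpx1, a glutathione peroxidase, rose 2.40-fold and 2.52-fold. Sod2, the mitochondrial superoxide dismutase, fell 1.45-fold (from 156 ± 5.41 to 107 ± 9.36 CPM), and Gclc and Gclm, which make glutathione, Gsta4 and Mgst3 fell by less. Levels of Hmox1 and both metallothioneins were highest in lesion 429.

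Hypoxia-response genes did not move as a group: 7 of 18 rose and 2 fell (median log2 0.15). Among all genes 26.7% were higher and 24.1% lower. Hif1a, the oxygen-regulated factor, rose 1.57-fold, and P4ha1 and P4ha2, catalytic chains of prolyl 4-hydroxylase, 1.58-fold and 1.56-fold. The falls were Car12, a carbonic anhydrase (from 8.93 ± 1.67 to 3.58 ± 1.35 CPM), and Vegfa, the endothelial growth factor (from 81.1 ± 7.61 to 60.2 ± 12.5 CPM). The Vegfa groups overlapped, and its call was lost without 377, 467, 402 or 429 (adjusted p up to 0.057).

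Of 20 heat shock genes 5 rose and 5 fell, near the 26.7% higher and 24.1% lower among all genes. The small heat shock proteins Hspb1, Hspb6, Hspb8 and Cryab rose 4.60-fold, 2.90-fold, 2.05-fold and 1.34-fold, with their partner Bag3 (1.52-fold). Hspb6 lay between 44.3 and 49.5 CPM in all lesions and between 13.3 and 22.2 in uninjured cord. Hspa4l, Hsph1 and Hspa12a, of the large families, fell 1.69-fold, 1.47-fold and 1.56-fold, Hspa8 1.195-fold and the cochaperone Dnajb1 1.33-fold. In autophagy 8 of 24 rose and 4 fell, so these counts too lie near the shares of all genes. Lamp2 and Lamp1, lysosomal membrane proteins, rose 1.95-fold and 1.63-fold, with Tfeb, a regulator of lysosomal genes (1.41-fold). Gabarapl1 and Map1lc3a, which mark autophagosomes, Ulk1, the initiating kinase, and Uvrag were the falls. Gabarapl1 was at 557, 514, 483 and 501 CPM in uninjured cord and 376, 391, 346 and 354 CPM in lesions, and the call of Map1lc3a was lost without 376, 377, 428 or 457 (adjusted p up to 0.102). The proteasome was mostly level, with 3 of 20 higher and 1 lower. Psmb8, an immunoproteasome subunit, rose 3.43-fold (from 2.91 ± 1.17 to 9.88 ± 1.90 CPM), and Psme1 and Psma4 rose 1.90-fold and 1.36-fold. Psmd1 fell 1.10-fold. Single libraries decided 3 of these: Cryab was not called without 377, 385, 467, 402, 428, 429 or 457 (adjusted p up to 0.098), Hspa8 without 376, 377, 385 or 429 (adjusted p up to 0.0985) and Psmd1 without 376, 377, 385, 467, 402 or 457 (adjusted p up to 0.106).

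**Figure D3:**
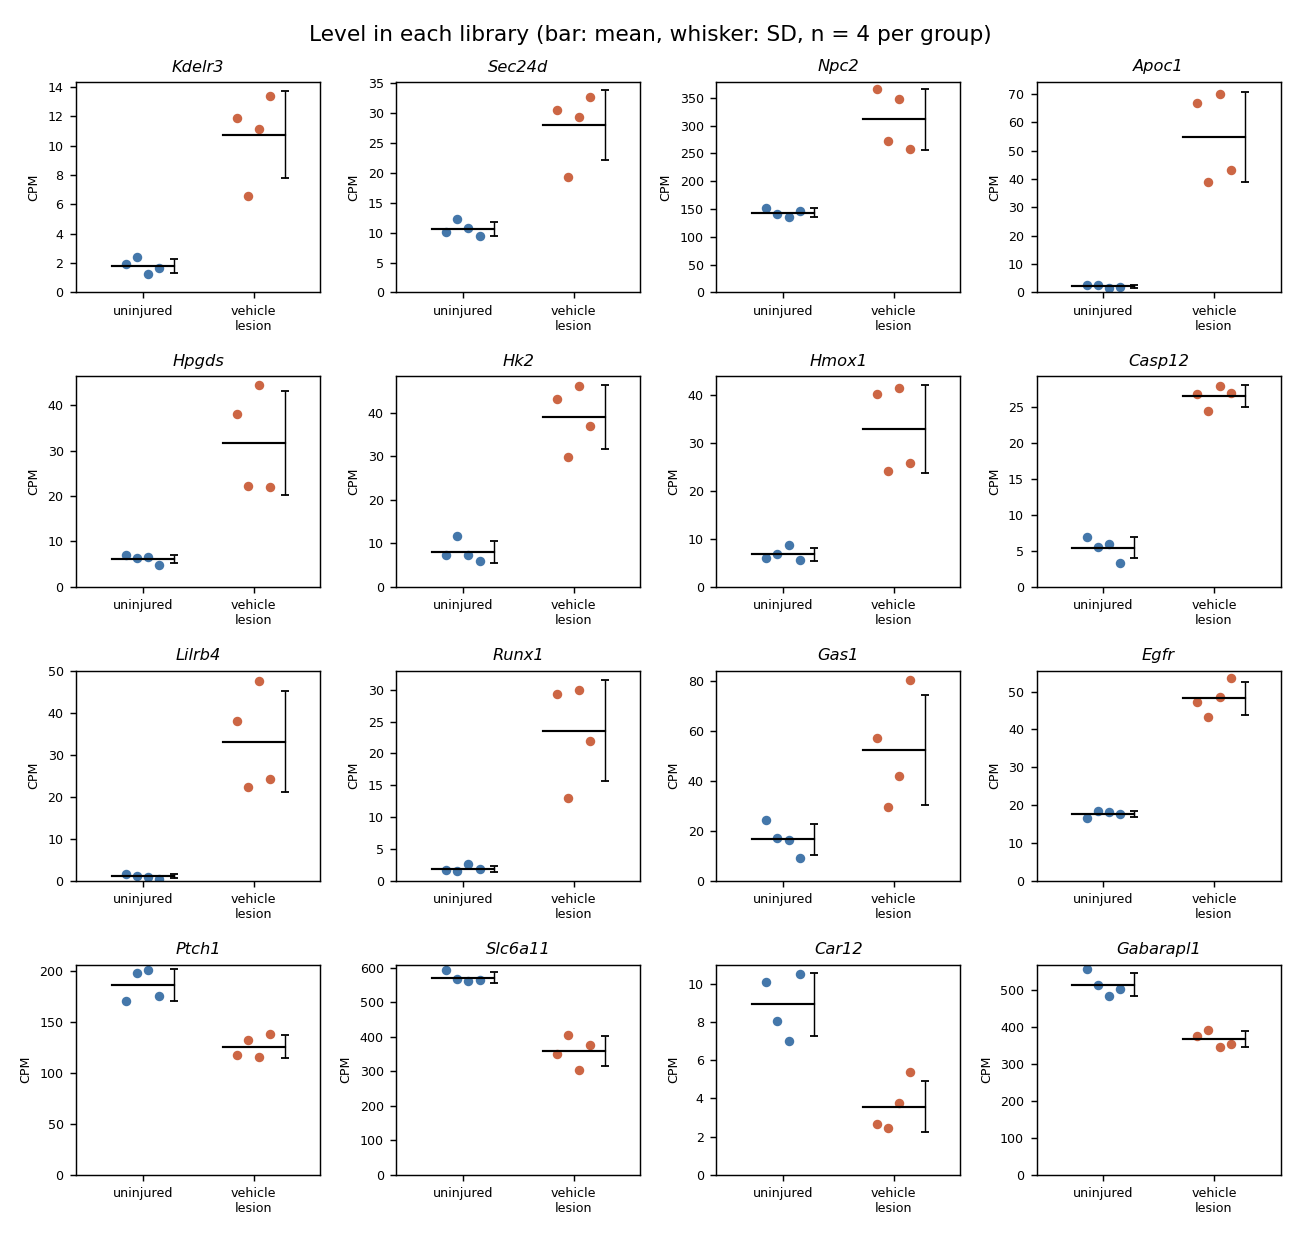
Each panel gives the CPM of 1 gene in every library on an axis from 0, with the group mean as a bar and the SD as a whisker (n = 4 per group). For all 16 genes the 4 lesions lie wholly above or wholly below the 4 uninjured libraries, and for genes such as Lilrb4, Hmox1 and Npc2 lesions 402 and 429 lie above 428 and 457.

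Genes of inflammasomes and lytic death had the highest median of all 54 lists, 2.08 on the log2 scale, with 18 of 20 higher and none lower. Pycard, the adaptor of inflammasomes, was at 2.18, 2.23, 1.93 and 1.67 CPM in uninjured cord and 14.5, 11.6, 15.6 and 10.03 CPM in lesions, a rise of 6.45-fold. Naip2, a sensor of bacterial proteins, rose 5.83-fold, and Gsdmd, the pore former of pyroptosis, 3.96-fold. Casp12 was at 6.89, 5.57, 5.89 and 3.34 CPM in uninjured cord and 26.9, 24.4, 27.9 and 27.0 CPM in lesions. Casp8, an initiator of apoptosis that also restrains necroptosis, rose 4.56-fold (from 3.91 ± 0.904 to 17.9 ± 2.90 CPM). Among p53 targets and genes of apoptosis and senescence 25 of 32 rose and 1 fell (median log2 0.67). The 6 not called included the p53 targets Phlda3, Plk2 and Aen. Cdkn2c, a cyclin-dependent kinase inhibitor, was at 1.72, 1.71, 2.11 and 1.93 CPM in uninjured cord and 9.19, 9.01, 10.4 and 7.84 CPM in lesions. Eda2r, a p53-induced receptor, rose 4.68-fold, Trp53 itself 1.602-fold, and Mcl1, which opposes apoptosis, 2.25-fold. Cdkn1a, the best-known p53 target, rose 1.63-fold but its groups overlapped, with lesion 428 at 30.9 CPM against 31.2 in uninjured 376. The fall was Zmat3 (from 142 ± 6.91 to 114 ± 4.09 CPM).

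Most measured checkpoint genes of immune cells, which are receptors and ligands and include costimulatory ones, rose. Of 15 measured among 19 listed, 13 rose and none fell (median log2 1.92), beside 26.7% and 24.1% of all genes. For 13 the groups did not overlap, beside 26.3% of all genes with every lesion above every uninjured library. Ctla4, Tigit, Btla and Pdcd1lg2 did not pass the filter on low counts and have no value. Members as scarce in uninjured cord as Cd200r1 and Pdcd1 could pass it only through lesions, so both counts are tilted towards rises. Lilrb4, an inhibitory receptor of myeloid cells that also stands in the phagocyte list, was at 1.49, 1.1998, 0.967 and 0.351 CPM in uninjured cord and 38.0, 22.2, 47.7 and 24.2 CPM in lesions, a rise of 33.4-fold. Cd200r1, which restrains myeloid cells when bound by CD200, rose 16.01-fold (from 0.253 ± 0.0162 to 4.22 ± 2.02 CPM). Havcr2 (TIM-3), Lair1 and Vsir (VISTA) rose 6.89-fold, 3.78-fold and 3.36-fold. Sirpa, the receptor of CD47, was at 209, 191, 204 and 190.1 CPM in uninjured cord and 414, 309, 445 and 294 CPM in lesions. Lag3 and Pdcd1 (PD-1), known from exhausted T cells and named for that, were at 4.82, 4.46, 3.87 and 5.62 CPM in uninjured cord and 51.3, 35.4, 67.0 and 28.4 CPM in lesions for Lag3 and at 0.344, 0.771, 0.615 and 0.263 CPM in uninjured cord and 5.77, 8.15, 7.90 and 5.80 CPM in lesions for Pdcd1. The 2 members without a call were the ligands Cd200 (from 84.9 ± 8.12 to 72.2 ± 5.91 CPM), and Cd47 (from 98.1 ± 7.32 to 96.1 ± 10.01 CPM).

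Lymphocyte markers themselves were scarce. Of 24 T and NK markers only 6 passed the filter on low counts, so a count over them is no support for a rise in the list, and the 6 together summed to 5.89 to 7.88 CPM in uninjured cord and 7.92 to 13.6 in lesions. Il7r was at 0.689, 0.686, 0.791 and 1.05 CPM in uninjured cord and 6.84, 1.85, 5.88 and 2.12 CPM in lesions, and Cd28, a costimulatory receptor, was the other rise (from 0.208 ± 0.161 to 1.23 ± 0.792 CPM), while Gata3 fell (from 1.49 ± 0.470 to 0.932 ± 0.0548 CPM). Genes of the T-cell receptor complex were among the 18 below the filter. For B and plasma cells 6 of 19 were measured, led by Blnk, an adaptor of the B-cell receptor that macrophages also carry (at 3.10, 3.86, 3.43 and 2.02 CPM in uninjured cord and 26.6, 13.6, 28.3 and 14.2 CPM in lesions), with Sdc1 (syndecan 1, 4.99-fold higher) and Igj, the joining chain of antibodies (from 0.610 ± 0.460 to 1.87 ± 0.886 CPM). Neutrophil and mast cell genes gave 2 rises among 11 measured, Csf3r and Mmp8, and 8 without uninjured 376. Csf3r, the receptor for granulocyte colony-stimulating factor, was at 7.69, 8.40, 9.05 and 5.53 CPM in uninjured cord and 55.5, 51.6, 74.8 and 56.2 CPM in lesions, while S100a9, an abundant neutrophil protein, was at 24.1, 4.03, 4.39 and 1.76 CPM in uninjured cord and 12.5, 9.75, 11.9 and 5.02 CPM in lesions and was not called. Among 11 dendritic cell genes 5 rose and 1 fell. Clec7a and Clec4n, which macrophages share, rose 52.9-fold and 16.1-fold, Siglech, Batf3 and Clec10a rose 1.79-fold, 1.76-fold and 3.60-fold, and Flt3, the growth factor receptor, fell (from 32.6 ± 2.93 to 20.7 ± 1.63 CPM). Several of these scarce genes were called by a narrow margin. The call was lost for Gata3 without 376, 377, 385, 467, 402, 428, 429 or 457 (adjusted p up to 0.261), for Igj without 376, 377, 467, 402, 428 or 457 (adjusted p up to 0.107) and for Mmp8 without 377, 385, 467, 402 or 429 (adjusted p up to 0.0886). The same held for Batf3 without 467 or 429 (adjusted p up to 0.0811) and for Clec10a without 376, 385, 402 or 457 (adjusted p up to 0.0628).

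Genes of coagulation and fibrinolysis, receptors among them, rose for 13 of 19 members and fell for 1 (median log2 1.51). Plau (urokinase) was at 3.56, 4.03, 3.87 and 2.90 CPM in uninjured cord and 38.9, 39.6, 53.1 and 42.3 CPM in lesions, and its receptor Plaur was at 1.49, 0.686, 0.703 and 0.351 CPM in uninjured cord and 14.5, 8.27, 16.4 and 7.37 CPM in lesions. Plat, the tissue plasminogen activator, was at 68.1, 73.2, 62.4 and 62.4 CPM in uninjured cord and 173, 179, 187 and 178 CPM in lesions, a rise of 2.70-fold with the smallest adjusted p of the list, 2.69e-07. Pros1, an anticoagulant cofactor that also bridges dying cells to AXL-family receptors, rose 3.61-fold (from 32.2 ± 2.95 to 116 ± 17.4 CPM). Anxa2, which binds plasminogen at the cell surface, rose 4.00-fold. The fall was F2rl2 (from 9.02 ± 1.62 to 4.98 ± 1.70 CPM), whose call was lost without 376, 467, 402 or 429 (adjusted p up to 0.0778).

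Vessel genes moved less, and their counts stand beside 26.7% higher and 24.1% lower among all genes. Of 15 brain endothelium markers 9 rose and none fell (median log2 0.40), none past 2-fold. Cdh5, the endothelial cadherin, was at 37.6, 30.9, 31.9 and 23.1 CPM in uninjured cord and 67.6, 49.8, 45.2 and 74.9 CPM in lesions, and Slc16a1, Tie1 and Tjp1 rose 1.79-fold, 1.49-fold and 1.35-fold. In angiogenesis 16 of 28 rose and 3 fell. Angptl2, a secreted angiopoietin-like protein, was at 12.7, 16.6, 12.2 and 6.85 CPM in uninjured cord and 102, 54.8, 84.2 and 100.03 CPM in lesions. Cxcr4 and Cxcr7, the receptors of CXCL12, rose 4.89-fold and 2.17-fold, and Nrp1, a coreceptor for VEGF and semaphorins, 2.29-fold. The falls were Vegfa above, Apln, the peptide apelin (from 78.4 ± 2.07 to 54.6 ± 4.99 CPM), and Unc5b, a netrin receptor (from 171 ± 11.1 to 136 ± 11.4 CPM). Of 21 vasoactive genes 10 rose and 1 fell. The endothelin receptors Ednra and Ednrb rose 2.66-fold and 1.55-fold, Ramp2 rose 1.83-fold and Agt (angiotensinogen) 1.49-fold. Ramp3 fell (from 2.81 ± 0.433 to 1.55 ± 0.406 CPM), and its call was lost without 467, 402 or 428 (adjusted p up to 0.0691).

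In purine signalling 16 of 24 rose and 4 fell (median log2 0.79). P2ry6, the UDP receptor that triggers phagocytosis, was at 3.33, 3.26, 4.22 and 2.11 CPM in uninjured cord and 28.1, 14.1, 25.5 and 15.7 CPM in lesions. Adora3, Gpr34 and P2rx7, receptors for adenosine, lysophosphatidylserine and extracellular ATP, rose 4.85-fold, 3.61-fold and 1.96-fold. The falls were Adora1, the presynaptic adenosine receptor (from 228 ± 10.5 to 174 ± 11.8 CPM), Entpd3, an ATP-degrading enzyme (from 55.3 ± 4.07 to 24.3 ± 5.11 CPM), P2rx5 and P2ry1.

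Growth factor families split evenly, with 10 of 26 FGF, EGF, neuregulin and HGF genes higher and 10 lower. The shares over all genes were 26.7% and 24.1%. The receptor Egfr was at 16.5, 18.3, 18.1 and 17.7 CPM in uninjured cord and 47.2, 43.3, 48.6 and 53.7 CPM in lesions, a rise of 2.73-fold (adjusted p = 4.04e-07), Erbb2 rose 3.44-fold and Met, the receptor of HGF, 2.46-fold. Of their ligands, Hgf rose 3.92-fold and Hbegf, an EGFR ligand, 1.98-fold, with Hbegf at 41.3 to 47.2 CPM in lesions and 21.0 to 23.2 in uninjured cord. Nrg1, the neuregulin of axons, fell 1.69-fold (from 31.1 ± 3.37 to 18.4 ± 1.39 CPM), and Fgfr3, an astrocyte receptor, 1.22-fold.

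Of 13 hedgehog pathway genes 7 rose and 2 fell (median log2 0.50), beside 26.7% and 24.1% of all genes. The coreceptors Gas1, Cdon and Boc rose 3.18-fold, 2.07-fold and 1.64-fold, and the effector Gli2 1.499-fold. Gas1 was at 24.2, 16.9, 16.3 and 8.87 CPM in uninjured cord and 56.8, 29.3, 41.8 and 80.4 CPM in lesions, highest in lesion 457 and lowest in 428. The 2 falls were Ptch1 and Hhip, which are both inhibitors and transcriptional targets of the pathway. Ptch1 was at 170.4, 198, 202 and 175 CPM in uninjured cord and 118, 132, 115 and 138 CPM in lesions. In the Notch pathway 12 of 23 rose and 4 fell (median log2 0.30), beside the same shares of all genes. Notch2, Mfng, which modifies Notch, and Rbpj, the DNA-binding partner, rose 1.83-fold, 2.07-fold and 1.67-fold. The 4 falls were the ligand Jag2 and the targets Hes5, Heyl and Nrarp. Nrarp, a feedback inhibitor, was at 13.2, 10.3, 16.6 and 14.1 CPM in uninjured cord and 6.09, 7.90, 6.15 and 6.19 CPM in lesions, and Hes5 was at 2.75 CPM or less in every library.

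YAP and TEAD genes rose for 15 of 19 members and fell for 1 (median log2 0.97). Yap1 and Wwtr1 (TAZ), the 2 coactivators, rose 1.96-fold and 2.28-fold. Yap1 was at 35.5, 36.2, 33.4 and 26.5 CPM in uninjured cord and 65.5, 59.4, 65.8 and 66.5 CPM in lesions. Axl, a receptor and a target, was at 122, 112, 109 and 100.1 CPM in uninjured cord and 340.3, 276, 369 and 296 CPM in lesions. Cyr61 and Ctgf, the most used targets and named for that, rose 7.67-fold and 3.71-fold. The fall was Crim1 (from 137 ± 8.56 to 99.6 ± 7.13 CPM). JAK-STAT and NF-kappa-B components rose for 24 of 32 and fell for none (median log2 0.89). Osmr, the oncostatin M receptor, was at 7.46, 9.77, 9.05 and 4.92 CPM in uninjured cord and 52.4, 41.7, 73.5 and 45.0 CPM in lesions. Socs3, the feedback inhibitor of STAT3 signalling, was at 1.95, 4.03, 2.81 and 1.93 CPM in uninjured cord and 23.4, 14.9, 20.6 and 21.6 CPM in lesions, a rise of 7.41-fold. Il10rb rose 3.95-fold, Nfkb2 2.81-fold and Rela 1.64-fold.

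Hormonal and daily programmes were less uniform. Glucocorticoid-responsive genes rose for 8 of 15 and fell for 1, beside 26.7% and 24.1% of all genes. The rises numbered 5 with the muscle score as a covariate and 4 or 5 without any of 376, 385, 467, 402 and 429, and Mt1, Mt2 and Cdkn1a among the rises stand in other lists too. The fall was Hsd11b1, which regenerates active glucocorticoid (from 23.4 ± 2.08 to 12.4 ± 4.14 CPM). Mean scores of that list were 0.62 and 0.76 in lesions 402 and 429 and 0.17 and 0.03 in 428 and 457, on the log2 scale from the uninjured mean. Of 19 clock genes 4 rose and 6 fell, near the 26.7% higher and 24.1% lower among all genes. Hlf, Cry2 and Clock fell 1.44-fold, 1.27-fold and 1.27-fold, and Bhlhe40, Nfil3, Bhlhe41 and Dbp rose 1.38-fold, 1.40-fold, 1.29-fold and 1.27-fold. The labels give no time of day for the dissections, and its part was not tested. The call of Bhlhe41 was lost without 429 (adjusted p up to 0.0518), and that of Dbp without 376, 377, 385, 467, 402, 428 or 429 (adjusted p up to 0.201).

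Transcription factors linked to injury rose for 33 of 39 and fell for 1, Heyl (median log2 0.96). Runx1, a factor of blood and stromal cells, was at 1.61, 1.46, 2.55 and 1.76 CPM in uninjured cord and 29.4, 12.96, 29.9 and 21.9 CPM in lesions, a rise of 12.7-fold. Spi1 (PU.1) and Ikzf1, factors of myeloid and lymphoid cells, rose 7.57-fold and 4.61-fold. Prrx1, a mesenchymal factor, was at 11.7, 13.6, 13.7 and 11.7 CPM in uninjured cord and 59.8, 32.7, 58.3 and 89.2 CPM in lesions. The lesions ranked differently for the 2 kinds: Spi1 was highest in 429 and 402, at 35.8 and 33.8 CPM, and Prrx1 in 457, at 89.2.

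Imprinted genes had the lowest median of the pathway lists, -0.34 on the log2 scale, with 10 of 23 lower and 2 higher, H19 and Igf2r. Of all genes 24.1% were lower and 26.7% higher. Peg10, Snrpn and Ndn, all expressed from the paternal allele in brain, fell 1.79-fold, 1.499-fold and 1.43-fold. Snrpn was at 437, 422, 404 and 429 CPM in uninjured cord and 287, 325, 235 and 282 CPM in lesions. Igf2, which shares its locus with H19, was not called: it was at 376, 286, 222 and 24.2 CPM in uninjured cord and 208, 242, 238 and 366 CPM in lesions, so library 467 was far below all others. Among 17 long noncoding RNAs 6 rose and 1 fell, Rian. After H19 and Neat1, Dleu2 and Snhg1 rose 1.98-fold and 1.57-fold. Malat1, the abundant neighbour of Neat1, was at 433, 670.00, 756 and 763 CPM in uninjured cord and 763, 893, 888 and 853 CPM in lesions and was not called (adjusted p = 0.318). The call of Rian was lost without 377, 385, 467, 402 or 429 (adjusted p up to 0.0865).

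Actin and motility genes rose for 37 of 40 members and fell for 1 (median log2 1.05). Myo1f, a myosin of leukocytes, was at 5.16, 4.54, 6.502 and 4.56 CPM in uninjured cord and 55.6, 41.6, 65.1 and 44.2 CPM in lesions, and Lsp1, an actin binder of the same cells, rose 7.84-fold. Arpc1b, of the complex that branches actin, rose 5.53-fold. Msn (moesin) and Flna (filamin A), found in many cell types, rose 2.95-fold and 2.87-fold. Flna was at 125, 139, 132 and 103 CPM in uninjured cord and 349, 326, 339.5 and 413 CPM in lesions. The fall was Evl (from 67.5 ± 1.83 to 54.002 ± 1.52 CPM). Of 23 tubulins and intermediate filament genes 7 rose and 7 fell, near the 26.7% higher and 24.1% lower among all genes. Nes (nestin) was at 44.1, 48.5, 39.8 and 30.5 CPM in uninjured cord and 194, 195, 131 and 218 CPM in lesions, Tubb6 and Lmna (lamin A/C) rose 2.53-fold and 2.28-fold, and the neuronal Tubb3 fell 1.26-fold.

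Galectins and tetraspanins rose for 15 of 20 and fell for 2 (median log2 1.19). Cd9 was at 59.5, 59.9, 57.6 and 68.6 CPM in uninjured cord and 255, 188, 289.9 and 189 CPM in lesions, and Cd63, a tetraspanin of late endosomes, rose 3.37-fold. Lgals9, a ligand of Havcr2, was at 14.8, 12.9, 14.5 and 11.3 CPM in uninjured cord and 42.2, 28.4, 38.4 and 34.7 CPM in lesions. The falls were Tspan7 and Tspan13 (1.33-fold and 1.26-fold). Among 27 ion channels of non-excitable cells 16 rose and 5 fell (median log2 0.41). Kcnn4, a calcium-gated potassium channel of immune cells, rose 7.22-fold (from 0.796 ± 0.135 to 5.76 ± 1.57 CPM), and the proton channel Hvcn1 was at 11.02, 11.6, 12.2 and 10.4 CPM in uninjured cord and 43.9, 30.4, 50.5 and 31.2 CPM in lesions. Clic1 and Tmem176b rose 4.22-fold and 3.205-fold. The falls were Kcna3, Orai2, Trpm2, Stim1 and Kcnk13, the last with a call lost without 376, 385, 467, 402, 428 or 429 (adjusted p up to 0.0945). Kcna3, known in T cells and also present in neurons, was at 13.4, 7.88, 11.2 and 11.3 CPM in uninjured cord and 2.56, 4.81, 4.78 and 3.92 CPM in lesions.

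Of 10 measured osteoclast genes 6 rose and none fell, beside 26.7% and 24.1% of all genes, and macrophages express several of them too. Oscar, Mmp9, Car2 and Src were not called, and Calcr, Dcstamp, Ocstamp and Tm4sf19 did not pass the filter on low counts. Atp6v0d2, a proton pump subunit of osteoclasts and macrophages, was at 0.230, 0.171, 0 and 0 CPM in uninjured cord and 24.6, 7.78, 24.1 and 9.72 CPM in lesions. Acp5 (TRAP) was at 4.82, 0.686, 0.176 and 0.0878 CPM in uninjured cord and 32.8, 4.44, 14.2 and 10.8 CPM in lesions, with uninjured 376 above lesion 428. Ctsk (cathepsin K) was at 16.9, 9.08, 10.3 and 9.92 CPM in uninjured cord and 81.7, 30.4, 54.6 and 73.0 CPM in lesions. Nfatc1 and Tnfrsf11a (RANK), the factor and receptor of osteoclast formation, rose 2.34-fold and 2.13-fold. Of 20 bone and cartilage genes 9 rose and 1 fell, the tendon factor Mkx (from 15.0 ± 0.968 to 10.7 ± 0.849 CPM), and Tnfrsf11b (osteoprotegerin), the decoy for the RANK ligand, rose 2.24-fold. Uninjured 376, rich in blood transcripts, had the highest uninjured Acp5 and Ctsk, and the part of bone in the pieces was not tested.

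Other tissue in the pieces was read from its markers, with counts set beside 26.7% higher and 24.1% lower among all genes. For skeletal muscle 3 of 15 rose (Myh1, Myh2 and Mb; 7 without 377), and Myh4 was at 0.115, 356, 65.9 and 0.439 CPM in uninjured cord and 10.04, 0.123, 2.20 and 39.5 CPM in lesions. Myh2 was at 29.7, 0.617, 43.1 and 71.8 CPM in lesions, so the muscle-poor lesion 428 lay below uninjured 377. The call of Myh1 was lost without 385 or 457 (adjusted p up to 0.0866). For meninges and adipose tissue 5 of 12 rose, and 3 did with a sex term, with the muscle score as a covariate, or without any of 385, 467, 402 and 457: Slc47a1 was at 3.44, 1.29, 1.23 and 0.0878 CPM in uninjured cord and 22.2, 8.89, 11.3 and 24.7 CPM in lesions, Foxc1, Cldn1 and Cfd rose 2.11-fold, 2.30-fold and 4.82-fold, and Fabp4 lost its call without 385, 467, 402 or 457 (adjusted p up to 0.0641). Among Schwann cell markers 5 of 12 rose (3 without 385 or 428, and 2 without 429) and L1cam fell. Egr2, the factor of peripheral myelination, was at 2.41, 3.26, 2.20 and 0.351 CPM in uninjured cord and 12.3, 9.51, 10.3 and 12.9 CPM in lesions, and Pmp22, Cdh19, Ngfr and Pllp rose 1.64-fold, 1.39-fold, 1.79-fold and 1.21-fold. Library 467 was the lowest of all 8 for Slc47a1, Foxc1, Cldn1, Fabp4, Egr2 and Pmp22. Calls were also lost for Cfd without 377, 385, 467, 402, 429 or 457 (adjusted p up to 0.148), for Cdh19 without 429 (adjusted p up to 0.0699), for Ngfr without 376, 385, 467, 428, 429 or 457 (adjusted p up to 0.153) and for Pllp without 377, 385, 402, 428 or 429 (adjusted p up to 0.0859).

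Glial lists differed in their counts, beside 26.7% higher and 24.1% lower among all genes. Of 15 myelin genes 7 rose and none fell, none past 2-fold. With a sex term 3 of them were higher, as they were without any of 376, 377, 385, 428 and 429, and without 402 there were 4. Apod and Cldn11 rose 1.59-fold and 1.49-fold. Of 12 oligodendrocyte precursor genes 5 rose (3 without 429) and none fell. Gpr17, a receptor of newly committed oligodendrocytes, was at 62.3, 40.3, 57.6 and 99.5 CPM in uninjured cord and 154, 112, 209 and 139.5 CPM in lesions, and Pdgfra, which stromal cells share, rose 1.43-fold, with Neu4, Sox6 and Tmem100 (1.68-fold, 1.40-fold and 1.68-fold). Of 16 astrocyte genes 8 rose and 1 fell, Fgfr3. Mlc1, Aldh1l1 and Slc1a3, the gene whose promoter drives Cre in this line, rose 1.505-fold, 1.48-fold and 1.41-fold. Ependymal genes gave 1 rise, Cfap126, and 2 falls, Rsph4a and Tmem212, among 17, with a median log2 of -0.20. Calls were lost for Neu4 without 429 (adjusted p up to 0.0741), for Sox6 without 376, 377, 385, 467, 429 or 457 (adjusted p up to 0.129), for Rsph4a without 376, 467, 428 or 429 (adjusted p up to 0.0635) and for Tmem212 without 376, 467, 402, 428 or 457 (adjusted p up to 0.145).

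**Figure D4:**
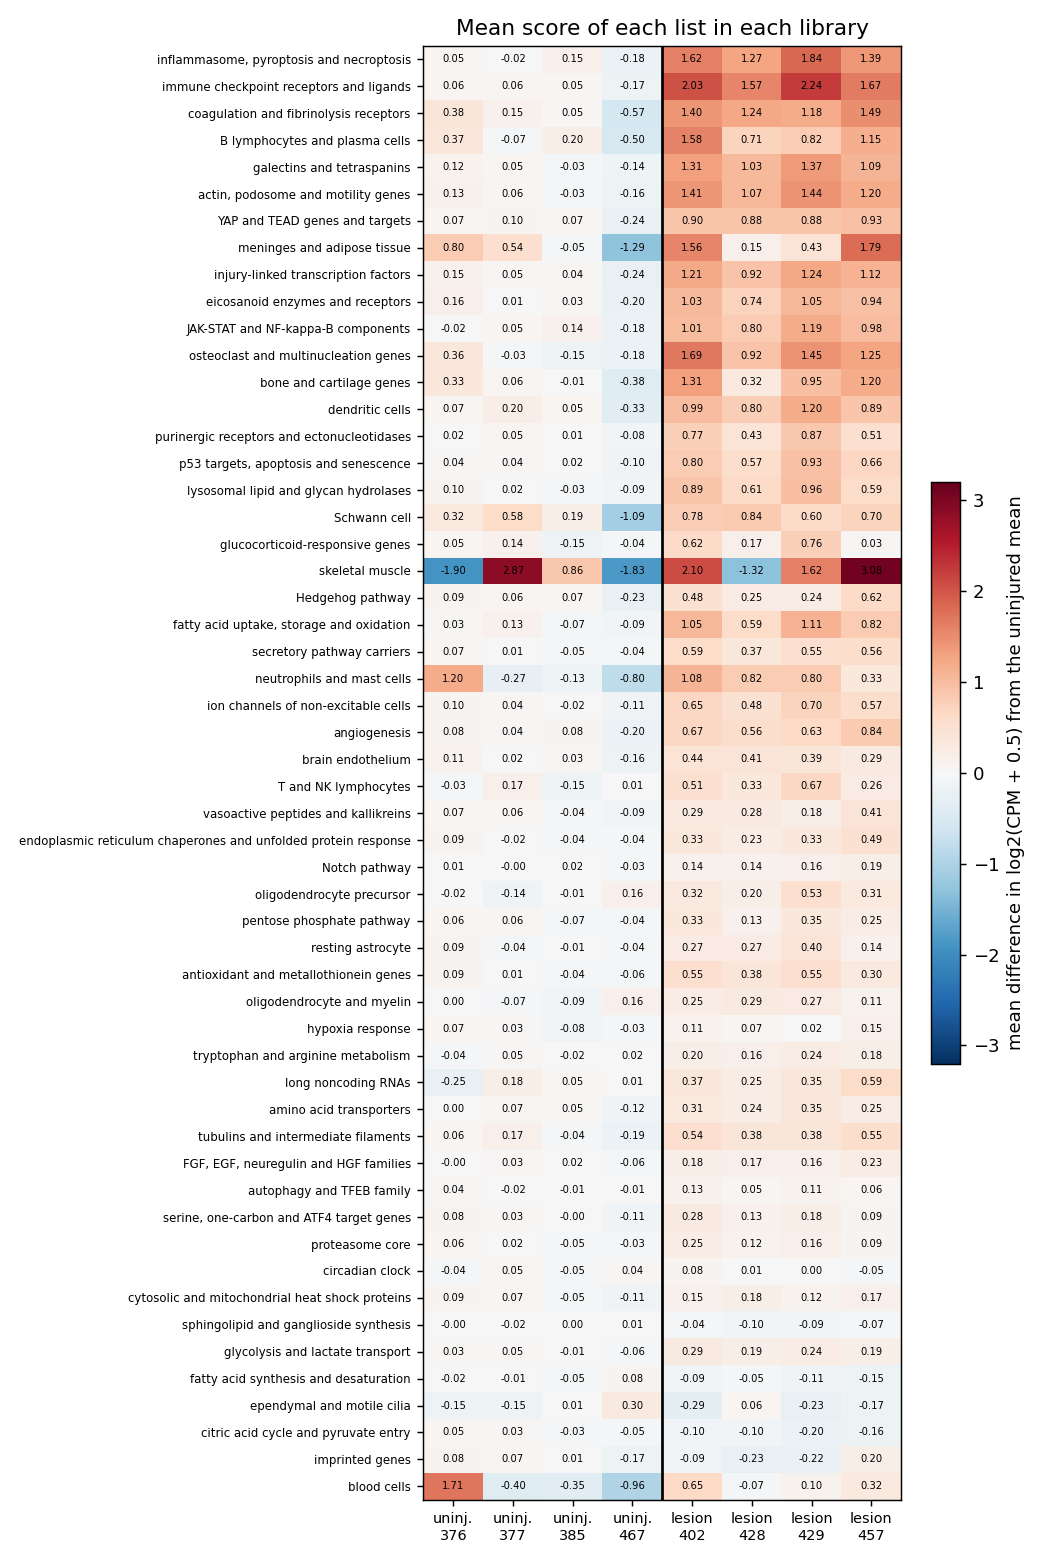
Each cell is the mean difference in log2(CPM + 0.5) from the uninjured mean over a list's measured members, for 8 libraries in columns and 54 lists in rows. Lesions are red across the immune and secretion lists and slightly blue for the synthesis of fatty acids and sphingolipids, 428 is the palest lesion in 24 of the 40 lists in which every lesion scores above every uninjured library, and the muscle row varies within both groups.

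Scores over whole lists showed how far the 4 lesions resembled each other. For 40 of the 54 lists every lesion scored above every uninjured library, for 2 every lesion scored below, and for 12 the groups overlapped. Among the 40, lesion 428 was lowest for 24 and highest for 2, and lesion 429 was highest for 19. The checkpoint list scored 2.03, 1.57, 2.24 and 1.67 in the lesions, and the lysosomal hydrolases 0.89, 0.61, 0.96 and 0.59. For endoplasmic reticulum chaperones the order was different, with 0.33, 0.23, 0.33 and 0.49, and for Hedgehog genes 0.48, 0.25, 0.24 and 0.62. Lesion 457 was thus highest for these 2 lists and lowest for lysosomal genes, where 402 and 429 were higher. With 4 lesions these orders are descriptions and were not tested.

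Sex and muscle were set against the whole comparison. With a sex term 3979 genes were higher and 3631 lower. With the muscle score as a covariate among the 8 libraries 4123 were higher and 3791 lower. Leaving out the 5 muscle-rich libraries left 428 as the only lesion, and 278 genes were then higher and 18 lower. Among female libraries 429 was the only lesion, with 2833 higher and 2417 lower. In both cases the single lesion was assumed to vary like the other groups. Of the Ras genes, Hras1 was at 14.2, 20.7, 16.7 and 17.4 CPM in uninjured cord and 14.0, 14.7, 16.8 and 16.1 CPM in lesions and was not called (adjusted p = 0.263). Nras rose 1.47-fold, but its call was lost without 376, 377 or 429 (adjusted p up to 0.101). The 2 genes often used as level references were Hprt, which fell 1.24-fold (from 109 ± 7.43 to 88.2 ± 4.62 CPM), and Rpl27 (from 3.80 ± 0.480 to 4.93 ± 0.577 CPM), which was not called (adjusted p = 0.0618) and has near-identical copies that may take its reads.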

How the data were processed

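Whole-tissue RNA of 12 mice was sequenced, and 8 libraries (4 uninjured, 4 vehicle lesion) are described. Per the submitters' processing notes, TopHat, Picard, HTSeq and Cufflinks were used with mm9. The authors deposited raw counts per gene and, separately, FPKM, which scales counts by transcript length and depth. The sources used here do not say whether counting used strand. Counts of genes passing edgeR's filterByExpr (minimum count 10, minimum total 15) were scaled by TMM and fitted by quasi-likelihood with 3 group means over 12 libraries (9 residual degrees of freedom). The main tools were R 4.3.3 and edgeR 4.0.16, with limma 3.58.1 and DESeq2 1.42.0 in alternatives. Calls use a Benjamini-Hochberg adjusted p of 0.05 over all genes tested. Levels are TMM-scaled CPM, and the deposited FPKM served only for levels between genes and for alternatives. Simulated counts at the real depths of this comparison, with 15944 genes tested, had 50 genes changed at each fold in each direction. The test returned 80% of the 2-fold and 96% of the 4-fold rises, and 74% of the 2-fold and 92% of the 4-fold falls. It gave 10 false calls among 15746 unchanged genes. In the data 8368 genes were called and large rises far outnumbered large falls, so these rates may not carry over. The members and the gene lists were chosen with earlier results of these data known. Names were drawn from a rule: the largest called rises and falls among genes of at least 20 CPM, the largest changes in CPM, up to 8 genes per list by p and level, and the line's own and reference genes. Of 351 names, 78 fall outside it, and some genes are not reported here. Members below the filter have no value. Promoters are RefSeq windows on GRCm38.p6, used for sequence only because the files use mm9. Alternatives changed the scaling, filter, tool, unit, covariates or libraries. Those on FPKM also changed the tool, and the one with the muscle covariate also changed the libraries.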

Additional observations from a re-analysis of the deposited data

Results flagged for a closer look

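A library apart from the other 3 of its group was looked for in each named gene, and 45 were found in 702 groups tested. Chance gives about 1 in 20 groups. Values are CPM. Uninjured library 376 was the highest of its group for Hbb-b1 (70.0 against 4.30 to 8.74), Clu (738 against 624 to 638), Hspa5 (410.2 against 315 to 324), Pdia6 (125 against 100.4 to 104) and Acsbg1 (293 against 271 to 272). The highest value was again that of library 376 for Slc2a3 (108 against 95.9 to 97.9), Slc6a11 (594 against 561 to 567), P4ha1 (65.1 against 55.7 to 56.4), Dnajb1 (75.1 against 59.8 to 61.9) and Psmd1 (186 against 176 to 177). The highest value was again that of library 376 for S100a9 (24.1 against 1.76 to 4.39), Hes5 (2.75 against 1.54 to 1.67), Acp5 (4.82 against 0.0878 to 0.686), Ctsk (16.9 against 9.08 to 10.3) and Cldn1 (6.77 against 4.30 to 4.57). The highest value was again that of library 376 for Cfd (3.21 against 0.176 to 0.514). Uninjured library 467 was the highest of its group for Hoxc10 (9.92 against 2.14 to 2.30), Gata3 (2.19 against 1.1998 to 1.32) and Tmem100 (18.3 against 15.5 to 15.99). Lesion library 429 was the highest of its group for Aqp4 (1705 against 1127 to 1191), Hspb8 (134 against 123 to 124), Slc16a1 (244 against 178 to 188) and Notch2 (109 against 94.8 to 95.4). Uninjured library 385 was the highest of its group for D10Bwg1379e (116 against 98.6 to 99.7), Gucy1a2 (65.5 against 50.04 to 51.3), Lingo4 (57.6 against 45.6 to 47.0) and Hspa12a (338 against 307 to 309). Uninjured library 467 was the lowest of its group for Hoxc8 (97.0 against 182 to 191), Idh2 (30.3 against 36.4 to 37.5) and P2rx5 (16.9 against 19.8 to 20.2). Lesion library 428 was the lowest of its group for P4hb (283 against 345 to 353), H6pd (20.2 against 30.2 to 31.8), Slc1a5 (11.97 against 25.1 to 26.9), Anxa2 (149 against 197 to 203) and Yap1 (59.4 against 65.5 to 66.5). The lowest value was again that of library 428 for Lsp1 (30.0 against 57.8 to 59.4). Lesion library 457 was the highest of its group for Creld2 (31.7 against 21.1 to 22.7), Hsp90b1 (328 against 259.99 to 265) and Tjp1 (264 against 242 to 245). Uninjured library 385 was the lowest of its group for Ptger1 (17.3 against 19.3 to 19.6). Uninjured library 377 was the lowest of its group for Nos1 (123 against 149 to 152). Lesion library 429 was the lowest of its group for Zmat3 (108 against 115 to 116). Lesion library 428 was the highest of its group for Nrarp (7.90 against 6.09 to 6.19) and Tspan13 (75.1 against 64.5 to 65.6). Lesion library 402 was the highest of its group for Ctgf (77.9 against 54.2 to 56.3).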

How the results depend on the processing

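No paired analysis was possible because the mouse numbers are not shared between groups. Counts of calls stayed within 1.5 times of the main ones under the other scalings, filters, tools and covariates that were run. With limma on log2(FPKM + 1), 1030 genes were higher and 147 lower by at least 2-fold. Without the 5 libraries with a muscle score above 2, a fit that keeps 1 vehicle lesion, 278 were higher (263 by 2-fold) and 18 lower (5 by 2-fold). With female libraries only, an alternative added after the data were seen that also keeps 1 lesion, 2833 were higher and 2417 lower (735 by 2-fold). Leaving out each library in turn gave 3589 to 4064 higher, 3595 to 4048 lower, 1539 to 1770 higher by 2-fold and 316 to 517 lower by 2-fold. In all of these leave-one-out fits 307 of 341 called named genes kept their direction and call, and 34 lost it in at least 1. Another added alternative left out 3 tamoxifen libraries whose names form a run of their own, and no named gene turned sign. Log2 changes of named genes turned sign with female libraries only for Cd47 (0.0683) and Igf2 (-0.31). With limma-voom, the sign turned for Hbb-b1 (0.52). On log2(FPKM + 1), the sign turned for Hbb-b1 (0.28), Gm10159 (0.22), Cd47 (0.12) and Hras1 (0.0194). On log2(FPKM + 0.1), the sign turned for Hbb-b1 (0.32), Gm10159 (0.22), Cd47 (0.12) and Hras1 (0.0232). With a sex term, the sign turned for Hbb-b1 (0.28) and Cd47 (0.00047). With the muscle score as a covariate, the sign turned for Hbb-b1 (0.32). Without the muscle-rich libraries, the sign turned for Hspa5 (-0.0386), S100a9 (-0.41), Cfd (-3.66) and Fabp4 (-0.15). With each library left out in turn, Hbb-b1 ran from -0.80 to 1.27 and turned without 376, Cd47 ran from -0.0865 to 0.0234 and turned without 385 or 402, S100a9 ran from -0.12 to 1.52 and turned without 377 or 467, and Igf2 ran from -0.16 to 0.57 and turned without 467. The cause was not tested. Depth limits genes near the floor of 3 counts over a group, and 4 mice a group limit small changes.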
